A study of Micromonas commoda with 15 samples.

Results

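In cultures of the marine green picoalga Micromonas commoda, 105 of 10300 gene models were higher with iron chloride (FeCl3) and lower with zinc sulfate (ZnSO4) than in control cultures. They were selected on these same measured values. Levels were CPM (counts scaled to library size) adjusted by TMM, edgeR's correction for library composition, and averaged over the libraries of a group. A model was taken when its control mean was at least 1 and under 1000 CPM, the mean over the 5 groups was at least 5 CPM, the log2 ratio to control was at least 0.5 with FeCl3 and at most -0.5 with ZnSO4, and the log2 ratio of ZnO particles minus that of Fe2O3 particles lay above -1. A pseudocount of 0.5 CPM was added before each ratio. The level conditions alone held for 7657 models, of which the 105 made up 1.37%.

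The cultures were of strain RCC299, grown in L1 medium, and were collected after 48 h of exposure. The groups were cultures with Fe2O3 nanoparticles, with FeCl3, with ZnO nanoparticles and with ZnSO4, and control cultures with none of these additions. Each had 3 libraries. The labels give 2.4 mg/L of iron (3e-05 M Fe2O3 particles) and 0.8 mg/L of zinc (1e-05 M ZnO particles), with each salt at the metal concentration of its particle, so iron and zinc were not matched for dose. Read as mass of metal and moles of particle, the labelled values do not describe the same amount of metal, and which one applies is not stated. Read as mass of oxide and moles of metal, the mass and molar values agree to rounding for both particles. That this reading was meant is not stated. Nothing states whether the libraries of a group came from separate cultures. The p-values set each difference against the spread within groups, estimated over all 5 groups, and that spread may be technical.

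Iron is a cofactor of the photosynthetic electron transport chain and of respiration, and its low solubility in seawater often limits the growth of marine algae. Zinc is a cofactor of carbonic anhydrase, of DNA- and RNA-binding proteins and of many other enzymes, and in excess it is toxic to microalgae. Metal oxide particles can act on cells through the metal ions they release as well as through contact with the particle itself. A salt of the same metal is the usual comparison for the released ions. The deposited identifiers are not paired with gene names, and 0 of the 10300 matched the RefSeq table of the strain, so the models are described by their levels, no role is given to any of them, and at most 4 identifiers are printed.

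Total counts ran from 33473041 to 48969454 per library. The lowest count of any of the 105 models in any library was 80, and the median of the models' lowest counts was 913. All 105 passed the filter on low counts, which kept 10012 models. Their biological coefficient of variation, the spread between replicate libraries beyond counting error, had a median of 16.4%, against 14.6% over the 7657 models of the same level range. None carried the mark that 29 models of the table bear as duplicates.

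The choice fixed where the 105 models stood in the salts, and the following values describe it without a test. With FeCl3 the log2 ratios to control ran from 0.50 to 1.27 with a median of 0.66. With ZnSO4 they ran from -3.10 to -0.50 with a median of -0.68. The changes were therefore mostly moderate: 7 models were at least 2-fold higher with FeCl3, 21 were at least 2-fold lower with ZnSO4, and 2 were both. A single model lay more than 4-fold below control with ZnSO4. In mean level, the models ranged from 7.86 to 541 CPM with FeCl3 (median 65.2), from 2.35 to 188 CPM with ZnSO4 (median 26.9) and from 3.58 to 358 CPM in control cultures (median 42.2).

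Within the FeCl3 group 1 library stood apart. The median of the 105 log2 ratios to the control mean was 0.98 in FeCl3 replicate 1, 0.52 in replicate 2 and 0.42 in replicate 3. The ZnSO4 libraries were closer together, at -0.81, -0.69 and -0.65. Fe2O3 particle libraries stood at 0.29, 0.40 and 0.70, ZnO particle libraries at -0.10, -0.14 and -0.01, and control libraries at -0.10, 0.20 and -0.12. All 105 models lay above the control mean in FeCl3 replicate 1, and 104 did so in each of the other FeCl3 libraries. In each ZnSO4 library all 105 lay below it. Without FeCl3 replicate 1 the same conditions chose 22 models, of which 18 were among the 105. TMM scales all libraries to 1 reference library, which also changed in that setting; with the reference kept, 47 models were chosen and 44 of them were among the 105.

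**Figure D1:**
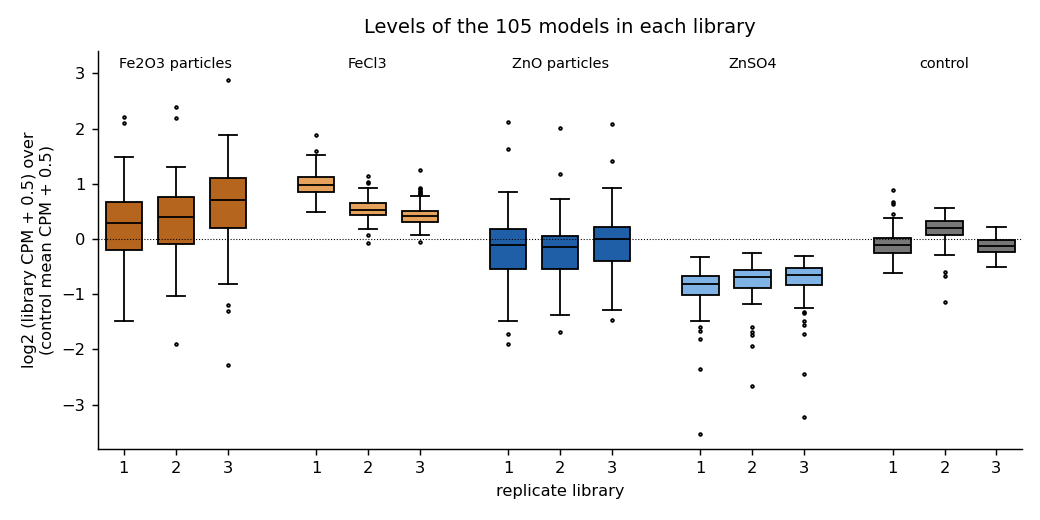
Each box shows the 105 models in 1 library, as the log2 ratio of its CPM to the mean of the control libraries, both with 0.5 CPM added (line, median; box, quartiles; whiskers, up to 1.5 times the box length; points, models beyond). The FeCl3 and ZnSO4 boxes lie on opposite sides of 0 by choice, FeCl3 replicate 1 is the highest of its group with a median of 0.98, and the particle boxes are wider than those of the salts.

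The printed models were picked by a rule: among the 78 models whose FeCl3 libraries all lay above and whose ZnSO4 libraries all lay below the controls, the 2 with the largest ratio for FeCl3 and the 2 others with the lowest ratio for ZnSO4. The share of all models whose salt libraries stood apart from the controls in this way is not given here. Nothing is read from the 78. The model wlab.238494.1 had the largest FeCl3 ratio. It stood at 13.1, 13 and 19.9 CPM with Fe2O3 particles, at 25.7, 12.1 and 12.0 CPM with FeCl3, at 11.7, 8.67 and 12.9 CPM with ZnO particles, at 4.45, 3.95 and 5.15 CPM with ZnSO4, and at 6.50, 7.58 and 5.73 CPM in control cultures. All 9 libraries of Fe2O3 particles, FeCl3 and ZnO particles lay above the controls, and the 3 ZnSO4 libraries lay below them. The FeCl3 mean was 16.6 ± 7.86 CPM (SD, n = 3), with replicate 1 far above the other libraries of the group. Against control it rose with Fe2O3 particles, by 1.22 in log2 fold change with an SE of 0.277, at an adjusted p of 0.00106 (edgeR, quasi-likelihood). With ZnO particles it rose by 0.75 with an SE of 0.277, at an adjusted p of 0.0268 in the same edgeR test. That call was lost in limma voom, at an adjusted p of 0.0503, and, at values of 0.73, 0.66 and 0.72, without control replicate 1, control replicate 3 and ZnO particle replicate 3. It was also lost without ZnO particle replicate 1 when the reference library of the scaling was kept, at 0.71. For ZnSO4 its log2 fold change was -0.55 and did not pass the threshold.

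The model wlab.239133.1 was next by FeCl3 ratio. Its levels were 41.4, 38.0 and 55.2 CPM with Fe2O3 particles, 83.5, 54.6 and 49.3 CPM with FeCl3, 25.6, 26 and 30.7 CPM with ZnO particles, 17.8, 22.4 and 18.9 CPM with ZnSO4, and 26.4, 35.2 and 24.6 CPM in control cultures. The iron groups lay above the controls without overlap, the ZnO particle libraries overlapped them, and the ZnSO4 libraries lay just below. With Fe2O3 particles it rose by 0.65 in log2 fold change with an SE of 0.203, at an adjusted p of 0.00981 (edgeR, quasi-likelihood). Its log2 fold change with ZnO particles was -0.06, which did not pass the threshold (adjusted p of 0.80 in the same edgeR test) and turned positive under several settings. The ZnSO4 value depended on the scaling and was -0.03 with total counts only.

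The model wlab.246691.1 had the lowest ZnSO4 ratio of the 78. It was measured at 39.4, 42.8 and 87.1 CPM with Fe2O3 particles, at 84.6, 55.5 and 48.9 CPM with FeCl3, at 28.3, 27.8 and 36.0 CPM with ZnO particles, at 12.7, 11.1 and 16.7 CPM with ZnSO4, and at 26.6, 43.6 and 33.8 CPM in control cultures. Fe2O3 particle replicate 3 and FeCl3 replicate 1 were the highest libraries. With Fe2O3 particles it rose by 0.71 in log2 fold change with an SE of 0.289, at an adjusted p of 0.0383 (edgeR, quasi-likelihood). The value was 0.29 without Fe2O3 particle replicate 3, 0.55 without control replicate 1 and 0.69 without control replicate 3, and in each case no longer called. With the replicate number as a block the call was lost as well, at 0.65 and an adjusted p of 0.0543.

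The fourth model, wlab.238138.1, was the most abundant of the 105 in control cultures and differed from the other printed ones in the particles. It stood at 168, 201 and 217 CPM with Fe2O3 particles, at 604, 510 and 508 CPM with FeCl3, at 127, 160 and 146 CPM with ZnO particles, at 165, 167 and 143 CPM with ZnSO4, and at 386, 389 and 297 CPM in control cultures. FeCl3 libraries were the only exposed ones above the controls, and the libraries of the other 3 exposures all lay below them. Its log2 fold change with Fe2O3 particles was -0.87 with an SE of 0.148, at an adjusted p of 8.43e-05 (edgeR, quasi-likelihood). With ZnO particles it was -1.30 with an SE of 0.149, at an adjusted p of 1.82e-06 in the same edgeR test. Both calls held under each of the 39 alternative settings run.

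**Figure D2:**
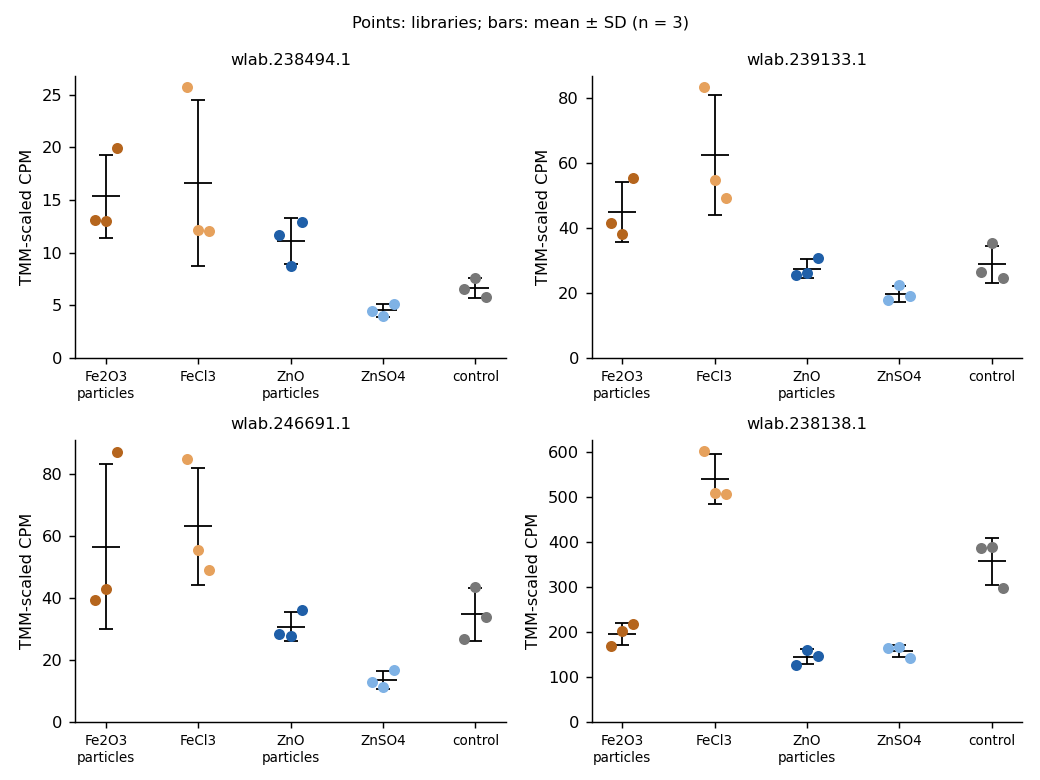
TMM-scaled CPM of the 4 printed models in the 5 groups, with a point for each library and the mean ± SD (n = 3) as bars; each panel has its own axis from 0. In wlab.238494.1, wlab.239133.1 and wlab.246691.1 the Fe2O3 particle mean lies above the control mean, while in wlab.238138.1 it lies below it, at 195 CPM against 358 CPM.

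The edges of the selection were crowded. For FeCl3 the nearest member had a log2 ratio of 0.5033 and the nearest model left out 0.4999. For ZnSO4 these were -0.5022 and -0.4989, and for ZnO minus Fe2O3 particles -0.9872 and -1.008. Of the 105 models, 41 lay within 0.1 of the FeCl3 threshold, 33 within 0.1 of the ZnSO4 threshold and 15 within 0.1 of the particle bound. A threshold of 0.7 in both salts would have kept 18 models, and one of 0.4 would have taken 229.

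For the record of the selected contrasts, edgeR's quasi-likelihood test over all 10012 models called 95 of the 105 higher with FeCl3 than in control, where 20.5% of all models were called higher. It called 99 lower with ZnSO4, where 35.6% of all models were, and 90 in both directions at once, where 3.25% were. All 105 were called higher with FeCl3 than with ZnSO4, where 30.4% of all models were. The rule used these contrasts, so nothing is read from the counts. Without FeCl3 replicate 1 the FeCl3 count was 54 and the count for both directions 40, or 46 and 45 with the reference library of the scaling kept. The ZnSO4 count was 65 without Fe2O3 particle replicate 3, 52 to 53 without any 1 of the ZnO particle libraries, and 34, 42 and 49 without ZnSO4 replicates 1, 2 and 3. In the same settings without a ZnO particle library the count for both directions was 47, and without ZnSO4 replicates 1, 2 and 3 it was 31, 36 and 43. The fits, which scale the filtered table, took another reference library in 8 of the 15 settings without 1 library, among them all of these. With the reference kept, the ZnSO4 count was 96 to 98 without any 1 of the ZnO particle libraries and 80, 89 and 92 without ZnSO4 replicates 1, 2 and 3. The count for both directions was then 82 to 84 and 71, 79 and 83.

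The size of the ZnSO4 ratios depended on the scaling. The median log2 fold change for ZnSO4 was -0.70 over the 105 models and -0.23 over all models tested, a difference of -0.47. When libraries were scaled by their totals alone, these medians were -0.18 and 0.31, a difference of -0.49. That scaling left 101 of the 105 models below control, of which 10 were called lower. The share of all models called lower under that scaling is not given here. The corresponding differences between the 105 models and all models were 0.57 for Fe2O3 particles, 0.65 for FeCl3 and -0.02 for ZnO particles. With total counts only they were 0.55, 0.65 and -0.03. A change of scaling shifts all models of a library alike, so these differences could hardly move and nothing is read from their stability. The position of the 105 models relative to control did change with the scaling.

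The particle exposures were not set against control by the rule, apart from the bound on their difference, although the control libraries that chose the models enter these comparisons too. With Fe2O3 particles 58 of the 105 models (55.2%) rose and 16 (15.2%) fell, by edgeR's quasi-likelihood test with Benjamini-Hochberg adjustment over all models. Over all models tested the shares were 35.6% higher and 35.7% lower, and over the models of the same level range 34.4% and 39.9%. The 58 rises had log2 fold changes from 0.40 to 2.46, and the 16 falls from -1.70 to -0.38. The libraries of the Fe2O3 particle group lay above all controls in 52 models and below all controls in 12, where over all models tested 33.9% lay above and 34.3% below. The median log2 fold change was 0.59 over the 105 models and 0.02 over all models tested. That of FeCl3, which shares the controls, was 0.66. The number of rises was 62 with total counts only and 47 without Fe2O3 particle replicate 3, the highest library of its group. The number of falls was less firm, at 5 with total counts only. It was 6 with a filter at a mean of 5 CPM, after which the scaling was computed anew. It was 10 both without Fe2O3 particle replicate 2 and with only the groups compared. Shares over all models under these settings are not given here.

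With ZnO particles the picture was different. Of the 105 models 10 (9.52%) rose and 29 (27.6%) fell in the same edgeR test. The shares over all models tested were 30.1% and 33.7%, and over the same level range 28.2% and 37.6%. Both shares of the 105 lay below those of the table, and this difference was not tested. The 10 rises ran from 0.42 to 2.09 in log2 fold change and the 29 falls from -1.73 to -0.39. ZnO particle libraries lay above all controls in 15 models, where 32.8% of all models tested did, and below all controls in 30, where 36% did. The median log2 fold change was -0.06 over the 105 models and -0.04 over all models. Total counts as the only scaling gave 25 rises and 12 falls. A filter at a mean of 5 CPM, with the scaling computed anew, gave 21 and 15. With total counts only, the median log2 fold change of all models was 0.34. Shares over all models under such settings are not given here. Without ZnO particle replicate 2 there were 15 falls, or 22 when the reference library of the scaling was kept, and without ZnO particle replicate 1 with that reference kept there were 6 rises. The balance of rises and falls with ZnO particles therefore depends on the processing. With Fe2O3 particles 57 to 62 rises were called under the 4 scalings run over all 5 groups. The falls there, and the rises without Fe2O3 particle replicate 3, varied as well, as given above.

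**Figure D3:**
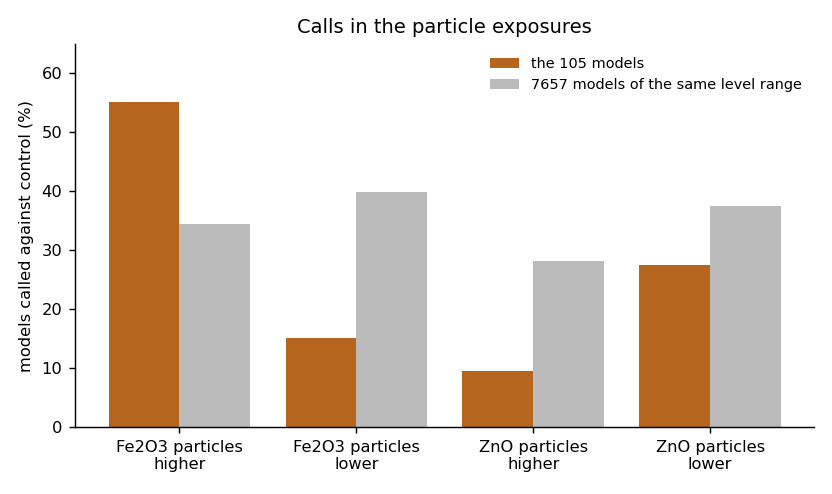
Share of models called higher or lower than control (adjusted p under 0.05) in each particle exposure, for the 105 models and for the 7657 models of the same level range. With Fe2O3 particles the 105 were called higher in 55.2% against 34.4%, and with ZnO particles in 9.52% against 28.2%.

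Sorted by both particle calls, the models fell into 7 classes. The largest class had 47 models (44.8%) that rose with Fe2O3 particles and were called in neither direction with ZnO particles. Over all models tested this combination made up 8.53%. Its median log2 ratios to control were 0.78 with Fe2O3 particles, 0.66 with FeCl3, 0.07 with ZnO particles and -0.73 with ZnSO4. The calls that define the class and the rule fix the directions of the medians for Fe2O3 particles and both salts, which describe size only. The direction of the ZnO particle median was not fixed, but its size was limited by the choice. The class holds no ZnO particle call, and the bound required ZnO minus Fe2O3 particles above -1. Shares over all models, here and for the other classes, were taken without the bound or the other conditions of the rule. They are a description only.

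The class that rose with both particles had 10 models (9.52%, against 26.6% of all models tested). Its medians were 1.24 with Fe2O3 particles, 0.80 with FeCl3, 0.60 with ZnO particles and -0.56 with ZnSO4. One of them was the highest of the 105 in both particle exposures. It was measured at 104, 110 and 180 CPM with Fe2O3 particles, at 53.1, 34.6 and 36.8 CPM with FeCl3, at 105, 98 and 103 CPM with ZnO particles, at 16.2, 15.9 and 17.6 CPM with ZnSO4, and at 20.5, 30.1 and 21.2 CPM in control cultures. No library of the first 3 exposures overlapped the controls, and both particle groups lay above FeCl3. It rose by 2.46 in log2 fold change with Fe2O3 particles (SE 0.221) and by 2.09 with ZnO particles (SE 0.218), at adjusted p of 1.07e-07 and 6.79e-07 (edgeR, quasi-likelihood). The zinc exposures lay on opposite sides of control in it, at means of 102 ± 3.68 CPM with ZnO particles and 16.6 ± 0.921 CPM with ZnSO4 (SD, n = 3 each).

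In 14 models (13.3%, against 29.7% of all models tested) both particles lay below control. The medians were -0.65 with Fe2O3 particles, 0.60 with FeCl3, -0.96 with ZnO particles and -0.63 with ZnSO4, with directions fixed in the same way. The model wlab.238138.1 belongs here, as does the lowest of the 105 with ZnO particles. That model stood at 14.8, 15.7 and 24.4 CPM with Fe2O3 particles, at 52.2, 39.1 and 45.1 CPM with FeCl3, at 7.96, 9.30 and 10.9 CPM with ZnO particles, at 19.4, 21.0 and 21.4 CPM with ZnSO4, and at 31.8, 33.3 and 28.1 CPM in control cultures. None of its groups overlapped the controls. With ZnO particles its log2 fold change was -1.73 with an SE of 0.183, at an adjusted p of 8.3e-07 (edgeR, quasi-likelihood).

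A further 14 models fell with ZnO particles and were not called with Fe2O3 particles. Their medians were -0.16 with Fe2O3 particles, 0.65 with FeCl3, -0.74 with ZnO particles and -1 with ZnSO4. Over all models tested this combination made up 3.61%. No particle call was made in 17 models (16.2%, against 21.8% of all models tested), which had the lowest median control level of the 7 classes, 16.9 CPM. The remaining 3 models were 2 that fell with Fe2O3 particles alone and 1 that rose with Fe2O3 particles and fell with ZnO particles.

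One of the 2 that fell with Fe2O3 particles alone was the lowest of the 105 there, and its control libraries were widely spread. It was measured at 43.3, 24.9 and 19.0 CPM with Fe2O3 particles, at 198, 99.3 and 118 CPM with FeCl3, at 128, 76.8 and 72 CPM with ZnO particles, at 31.1, 44.1 and 28.3 CPM with ZnSO4, and at 175, 42.7 and 66.6 CPM in control cultures. All 4 exposures overlapped the control range. The log2 fold change with Fe2O3 particles was -1.70 with an SE of 0.448, at an adjusted p of 0.00323 (edgeR, quasi-likelihood). Its FeCl3 value was not called, with a log2 fold change of 0.55 (SE 0.435).

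**Figure D4:**
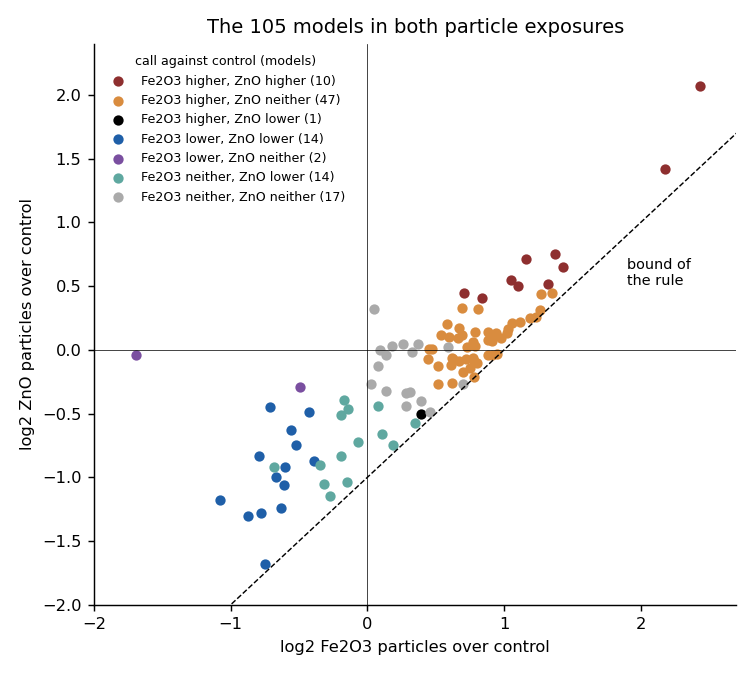
Log2 ratio to control of each of the 105 models with Fe2O3 particles (horizontal) and ZnO particles (vertical), coloured by the calls against control, with the number of models per class in the legend. The dashed line is the bound of the rule, below which no model could be chosen; the 47 models called with Fe2O3 particles alone lie right of 0, with median ratios of 0.78 with Fe2O3 and 0.07 with ZnO particles.

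Set against each other, ZnO particles lay below Fe2O3 particles in 101 of the 105 models. The share of all models in which they did so is not given here. The median difference in log2 ratio, ZnO minus Fe2O3 particles, was -0.65, and the bound of the rule allowed none at or below -1. Of the 105 models 59 were called lower with ZnO than with Fe2O3 particles, where 11.7% of all models tested were, and 1 was called higher, where 7.49% were. The second is the model with the widely spread control libraries, whose call was lost without Fe2O3 particle replicate 2 or 3 or ZnO particle replicate 1. The rule bounds this contrast on 1 side, so both counts are a description. The count of 59 was 26 with total counts only, 32 without Fe2O3 particle replicate 3, and 37, 22 and 38 without ZnO particle replicates 1, 2 and 3 (41, 33 and 43 with the reference library of the scaling kept). A further 62 models met every other condition but were left out by the bound.

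Levels in the particles can be read beside those of the salts, as a description. By mean level 65 of the 105 models were highest in FeCl3 and 40 in Fe2O3 particles, and none was highest in ZnO particles. The lowest mean was that of ZnSO4 in 89 models, of ZnO particles in 14 and of Fe2O3 particles in 2. Fe2O3 particles lay between the salts in 57 models, above FeCl3 in 40 and below ZnSO4 in 8. ZnO particles lay between them in 89 models, above FeCl3 in 2 and below ZnSO4 in 14. The median log2 difference of Fe2O3 particles from FeCl3 was -0.18, with 65 models below 0, and that of ZnO particles from ZnSO4 was 0.64, with 91 models above 0. The rule placed the salts at the 2 ends, so these positions are partly given by the choice. The same counts over all models are not given here.

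How firmly a model belongs to the set was examined by applying the same conditions under other settings. DESeq2 size factors chose 87 models, 82 of them among the 105. Group medians in place of means chose 81, with 52 shared, total counts only 55, with 17 shared, and centring each exposure on its median model 49, with 45 shared. Part of the loss without single libraries came with the reference of the scaling. For the levels of the rule, which scale the unfiltered table, the reference was Fe2O3 particle replicate 3, and in 5 of 15 settings without 1 library another library took that place. With the reference kept, the number of the 105 still chosen was 103 in place of 46 without ZnO particle replicate 1, 100 in place of 49 without ZnSO4 replicate 2, and 102 in place of 54 without ZnSO4 replicate 3. Without FeCl3 replicate 1 it was 44 in place of 18, so the reference accounts for part of that loss only. Taking a control library as the reference chose 51 to 55 models.

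A core of 11 models was chosen whichever of the 15 libraries was left out, and also with each other library as the TMM reference. Their median log2 ratios were 0.47 with Fe2O3 particles, 0.76 with FeCl3, 0.01 with ZnO particles and -0.87 with ZnSO4. In the salts all 11 were called in both directions, which the choice favours. With Fe2O3 particles 8 of the 11 rose and 0 fell in edgeR's quasi-likelihood test, and with ZnO particles 1 rose and 1 fell. Over all models tested the shares were 35.6% higher and 35.7% lower with Fe2O3 particles, and 30.1% and 33.7% with ZnO particles, and 11 models are too few to be read against them. The member of the core with the largest FeCl3 ratio, picked after its values were seen, stood at 155, 197 and 208 CPM with Fe2O3 particles, at 403, 430 and 499 CPM with FeCl3, at 135, 180 and 167 CPM with ZnO particles, at 113, 111 and 83 CPM with ZnSO4, and at 200, 239 and 194 CPM in control cultures. Its salts lay on either side of the controls without overlap, and the FeCl3 libraries were close together. None of the 4 printed models was among the 11, and 2 of the 11 were also chosen with total counts only.

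**Figure D5:**
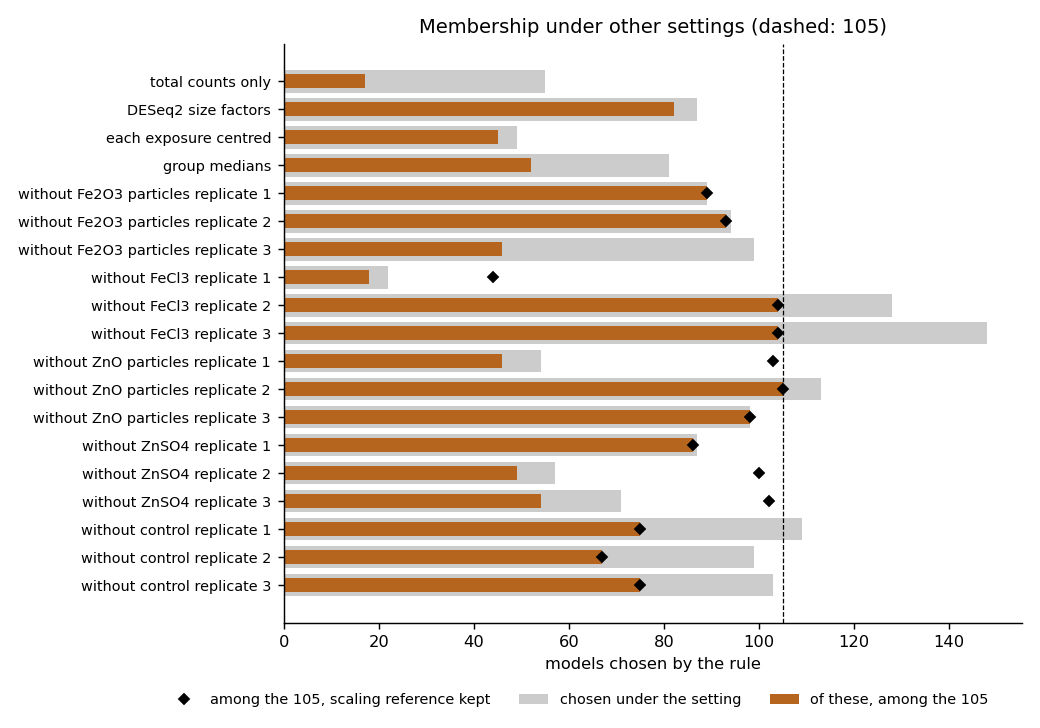
Number of models that the same conditions chose under each other setting (grey), the number of these among the 105 (brown), and that number when the TMM reference library was kept (diamonds); the dashed line marks 105. Without FeCl3 replicate 1 the shared number is 18, or 44 with the reference kept, and with total counts only it is 17.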

How the data were processed

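The authors deposited whole-number counts per gene model in 1 table for all 15 libraries, with no visible normalization. Per the submitters' processing notes, RSEM 1.3.0 and STAR were used after Trim Galore 0.4.0 and CASAVA 2.17; the name of the table speaks of HTSeq, so the counting program is not settled. Neither genome build nor annotation is stated in the sources used here. The identifiers printed are the 2 with the largest FeCl3 ratio and the 2 others with the lowest ZnSO4 ratio among models whose salt libraries did not overlap the controls. Groups were taken from the sample titles.

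Tests ran on the deposited counts, under edgeR 4.0.16 (R 4.3.3). Of the models, filterByExpr at a minimum count of 10 kept 10012 of 10300 models. All 5 groups entered 1 quasi-likelihood fit with group as its term, and models with a Benjamini-Hochberg adjusted p under 0.05 were called. Each SE (standard error) is the size of the fitted change over the root of its F statistic. Ratios named "log2 ratio" come from group mean CPM with the pseudocount, and "log2 fold change" from the fit. DESeq2 1.42.0 and limma 3.58.1 served as alternatives. The steps were tested on simulated counts, which had no differences in library composition beyond the planted changes. That test therefore says nothing on the choice of scaling. Set-wide values are described beside those of all models, with no test of the set. The members, printed models and comparisons were chosen with earlier results of these data known; the settings that keep or exchange the TMM reference library were added after seeing the data. Gene lists could not be used, since no identifier was paired with a name.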

Additional observations from a re-analysis of the deposited data

Results flagged for a closer look

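Of the 105 models, 1 had opposite effects in the 2 particle exposures. It was measured at 74.7, 81.6 and 99.5 CPM with Fe2O3 particles, at 122, 87.2 and 76.6 CPM with FeCl3, at 44.5, 40.7 and 51.5 CPM with ZnO particles, at 39.5, 43.6 and 40.1 CPM with ZnSO4, and at 63.1, 69.0 and 62.3 CPM in control cultures. Every iron library lay above the controls and every zinc library below them. In edgeR's quasi-likelihood test its log2 fold change was 0.40 with Fe2O3 particles (SE 0.161, adjusted p of 0.0353) and -0.50 with ZnO particles (SE 0.161, adjusted p of 0.0127), and the direct difference, ZnO over Fe2O3 particles, was -0.90 (SE 0.162, adjusted p of 0.00119). Among all models tested 0.41% were called in this pair of directions, and among the 105 it was 0.952%, a single model. Nothing is read from that share. Neither call against control passed an adjusted p of 0.01 in that edgeR test. Whether the calls held under other settings is not given here. Groups of 3 libraries are too small for a test of single outlying libraries.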

How the results depend on the processing

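The lowest count of any of the 105 models in a library was 80. Depth was not varied. The number of libraries changed only where 1 library was left out or only the groups compared were fitted. Shares of all models called under the settings below are not given, so these counts stand without a background. With total counts only, 5 models fell with Fe2O3 particles, 25 rose and 12 fell with ZnO particles, 26 were lower with ZnO than with Fe2O3 particles, 10 fell with ZnSO4 and 9 passed in both salts; the medians were 0.80, 0.31 and -0.18 for Fe2O3 particles, ZnO particles and ZnSO4. Centring each exposure gave 57 falls with ZnSO4, 51 in both salts and a ZnSO4 median of -0.47. A filter at a mean of 5 CPM gave 6 falls with Fe2O3 particles, and 21 rises and 15 falls with ZnO particles. It gave 37 falls with ZnSO4 and 34 in both salts, with medians of 0.88, 0.21 and -0.41. In the main fit the medians for Fe2O3 particles, ZnO particles and ZnSO4 were lower, at 0.59, -0.06 and -0.70. The scaling was computed anew after that filter, and whether filter or scaling moved the counts was not tested. Only the groups compared gave 10 falls with Fe2O3 particles, 49 with ZnSO4 and 38 in both salts, with medians of 0.03 for ZnO particles and -0.47 for ZnSO4. At an adjusted p of 0.01 there were 10 falls with Fe2O3 particles, 4 rises and 19 falls with ZnO particles, 35 lower and 0 higher with ZnO than with Fe2O3 particles, 57 rises with FeCl3 and 47 in both salts; the 0 compares with 1 at an unadjusted p under 0.05 in edgeR and 1 each by DESeq2 and limma voom at the usual threshold. The conditions chose 55 models with total counts only, 49 with centring, 229 and 18 at log2 thresholds of 0.4 and 0.7, 167 without the bound on the particles, and 51, 54 and 55 with control replicates 1, 2 and 3 as TMM reference.

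Without any 1 library, with the TMM reference chosen anew or kept, the ranges were 22 to 148 models chosen, 10 to 16 falls with Fe2O3 particles, 6 to 15 rises and 15 to 31 falls with ZnO particles, 0 to 1 higher and 22 to 70 lower with ZnO than with Fe2O3 particles, 46 to 100 rises with FeCl3, 34 to 100 falls with ZnSO4 and 31 to 91 in both salts. The medians ran from -0.13 to 0.06 for ZnO particles and from -0.80 to -0.44 for ZnSO4. With the reference kept, ZnSO4 medians were -0.70 in all settings without a ZnO particle library. The uncalled ZnO particle value of wlab.239133.1 turned to 0.30, 0.20 and 0.03 with total counts only, the 5 CPM filter and only the groups compared, and ranged from -0.16 to 0.11 without 1 library; that of wlab.246691.1 turned to 0.18 and 0.09 in the first 2 of these and ranged from -0.33 to 0.03. The cause of these changes was not tested, apart from the TMM reference. The replicate number as a block gave 57 rises and 17 falls with Fe2O3 particles and 10 and 29 with ZnO particles. Same-numbered libraries of different groups had correlations of -0.56 to 0.74, with a mean of 0.15 and 18 of 30 pairs over 0.1. Differently numbered libraries had a mean of -0.07, with 18 of 60 pairs over 0.1. The same-numbered values were the higher on average, but not every pair was over 0.1. Levels were centred within each group first, which ties these means to each other, so they are not separate evidence. The numbers were not taken to pair the libraries, though these values cannot exclude a pairing.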

Other observations

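The opposite pattern, lower with FeCl3 and higher with ZnSO4 under the mirrored conditions, held for 103 models, nearly as many as the 105. Its median log2 ratios to control were 0.38 with Fe2O3 particles, -0.73 with FeCl3, 0.61 with ZnO particles and 1.39 with ZnSO4. The changes with ZnSO4 were larger there: 69 of the 103 were at least 2-fold higher, and the largest log2 ratio was 4.11. The median control level was 11.6 CPM, against 42.2 CPM for the 105. In edgeR's quasi-likelihood test 45 rose and 7 fell with Fe2O3 particles, and 49 rose and 2 fell with ZnO particles. Over all models tested 35.6% were higher and 35.7% lower with Fe2O3 particles, and 30.1% and 33.7% with ZnO particles.

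The 62 models left out by the bound on the particles alone had median log2 ratios of 1.13 with Fe2O3 particles, 0.80 with FeCl3, -0.10 with ZnO particles and -0.77 with ZnSO4. With Fe2O3 particles 55 of the 62 rose and 1 fell, and with ZnO particles 8 rose and 16 fell, beside the same shares over all models. These models were selected for ZnO particles lying far below Fe2O3 particles, which favours rises with Fe2O3 and falls with ZnO particles, so nothing is read from the counts. Their order of exposures was the same as that of the largest class among the 105, with a wider gap between the particles, which the bound fixes.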
